A study of Arabidopsis thaliana with 16 samples.

Results

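The loci described here are assembled transcript loci of Arabidopsis seedlings that hold exactly 1 annotated gene, and that gene is a pseudogene or a transposable element gene. A locus on chromosomes 1 to 5 was counted as a member when the same-strand exonic overlap reached 50% of the gene or of the locus. There were 432 such loci among 43698, of which 208 were among the 20880 of the zeocin table and 224 among the 22818 of the UV-C table. They stand for 200 and 204 genes, and 135 genes had a locus in both tables. All seedlings were Col-0 (the common laboratory accession) and 15 days old, raised in vitro. One experiment set 5 libraries of seedlings treated with 200 microg/ml zeocin, a DNA-breaking drug, for 3 h against 5 mock libraries. The other set 3 libraries of seedlings given 8 kJ/m2 of UV-C, which makes DNA photolesions, against 3 mock libraries of its own, and the sources used here give no harvest time after the exposure. Whole seedlings were used, so less RNA per cell and fewer cells of a type cannot be told apart.

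Transposable element genes are the open frames and remnants of mobile DNA, and plants keep most of them silent through DNA methylation, histone marks and small RNAs. Pseudogenes are gene copies that have lost a working frame, and many lie beside the gene family they came from. Transcripts without a long frame can be removed by nonsense-mediated decay, and some former element genes have been taken over by the plant as ordinary genes. The reference annotation used here has no separate type for transposable element genes. It places them, with other gene remnants that it does not mark as transcribed, under the type pseudogene, and marks the rest as transcribed pseudogene. The first type is called the element class below, and belonging to it does not by itself show that a locus is an element. It held 93 members with zeocin and 98 with UV-C, and the transcribed pseudogenes held 115 and 126.

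The 300 bases around the assembled start are shown for the locus with the largest rise in each class and experiment among those reaching 1 CPM (counts scaled to a common library size), since these loci carry the results that follow. Each runs from 250 bases before to 50 bases after the first assembled base, 5′ to 3′ on the strand of the locus, read from the TAIR10 chromosomes of RefSeq. The first is such an element-class locus for both experiments, with its UV-C start, at chr2:1561872-1562171 on the minus strand. The second rose most with zeocin and lies at chr2:10810114-10810413 on the plus strand. The third rose most with UV-C among the transcribed pseudogenes and lies at chr2:10273792-10274091 on the minus strand. Capitals mark the motif CTT, any 7 bases, AAG, which is bound by SOG1, the plant's main DNA damage transcription factor, and the W-box (TTGACC or TTGACT on either strand), which is bound by WRKY factors.
AT2G04490: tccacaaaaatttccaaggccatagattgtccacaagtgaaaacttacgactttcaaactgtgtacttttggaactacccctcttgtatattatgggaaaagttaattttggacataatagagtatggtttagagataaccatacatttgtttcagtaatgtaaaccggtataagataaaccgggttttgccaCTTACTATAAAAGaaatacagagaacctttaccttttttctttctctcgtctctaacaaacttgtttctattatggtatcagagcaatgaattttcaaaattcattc
AT2G25380: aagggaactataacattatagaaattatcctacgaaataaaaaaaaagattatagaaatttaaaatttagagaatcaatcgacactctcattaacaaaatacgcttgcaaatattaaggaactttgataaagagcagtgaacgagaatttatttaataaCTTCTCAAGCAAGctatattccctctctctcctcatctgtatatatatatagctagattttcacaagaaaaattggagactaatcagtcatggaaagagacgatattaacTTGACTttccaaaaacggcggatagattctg
AT2G24165: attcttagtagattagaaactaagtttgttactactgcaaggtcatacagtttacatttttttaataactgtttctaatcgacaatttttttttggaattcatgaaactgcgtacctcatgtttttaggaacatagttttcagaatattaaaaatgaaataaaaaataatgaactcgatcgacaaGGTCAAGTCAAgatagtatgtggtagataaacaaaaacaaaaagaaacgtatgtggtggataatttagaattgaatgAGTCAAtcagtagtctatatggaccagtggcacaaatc

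The SOG1 motif lay 57 to 45 bases before the assembled start of AT2G04490 and 91 to 79 bases before that of AT2G25380. AT2G25380 also held a W-box at bases 20 to 25 after its start. AT2G24165 held 3 W-boxes, 2 of which share a base between 65 and 55 bases before the start, and no SOG1 motif. Of the 21 member loci that rose with zeocin, 7 held the SOG1 motif in this window (33.3%), against 20% of all loci that rose and 12.3% of all nuclear loci of the table. A W-box was present in 13 of the 21 (61.9%), against 44.3% and 32.7%. Of the 47 that rose with UV-C, 12 held the SOG1 motif (25.5%, against 14.4% of all that rose and 11.9% of all) and 20 a W-box (42.6%, against 41.7% and 32.9%). Over all annotated genes the shares of promoters of this length were 11.5% and 31.4%. Among all members, called or not, the SOG1 motif was in 14.9% (zeocin) and 16.1% (UV-C), and a W-box in 32.2% and 28.6%. These shares are a description without a test. The 21 zeocin rises include 2 loci each of AT2G16895 and AT3G25495. The heat shock element (alternating GAA, TTC and GAA, or TTC, GAA and TTC, each 2 bases apart), which drives the heat-induced ONSEN retrotransposons, was in none of the members that rose in either table. The 8 ONSEN copies looked for and the Copia element EVADE were held by no locus of either table.

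Member loci had a single exon more often than all loci by count. A single exon made up 57% of the element class and 45.2% of the transcribed pseudogenes in the zeocin table, and 77.6% and 63.5% in the UV-C table, against 17.7% and 26.1% of all loci. The longest open frame had a median of 191 codons in the element class of the zeocin table and 75 in its transcribed pseudogenes, and of 146 and 70.5 codons in the UV-C table. Genes of the element class lay among others of their class: within 100 kb they made up a median of 10.8% (zeocin) and 14.0% (UV-C) of annotated genes, against 2.94% and 3.33% around transcribed pseudogenes and 1.45% and 1.47% around all loci. At least 1 further genomic copy, of 80% identity over 200 bases or more, existed for 114 of the 208 and 136 of the 224. Reads that fit several places were not counted, so loci with near-identical copies are undercounted and their values are uncertain. In 63 and 79 cases the locus covered under 50% of its gene, and then the value rests on that part of the gene. Total counts per library ranged from 27973871 to 44536500, and the member loci together took 0.148% ± 0.0162 (SD, n = 5) of the counts in zeocin mock and 0.0716% ± 0.0041 (SD, n = 3) in UV-C mock. In CPM, scaled by library factors, the median member had 1.03 CPM in zeocin mock and 0.363 CPM in UV-C mock.

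Too few counts for a test left out 42 members of the zeocin table and 85 of the UV-C table, and none of these exceeded 1.40 or 0.795 CPM in any treated library. With zeocin, 21 of the 166 tested members rose and 12 fell, which is 12.7% and 7.23%, while 15.0% of all tested loci rose and 12.0% fell, or 27.0% in either direction (edgeR's quasi-likelihood test, Benjamini-Hochberg adjusted p below 0.05). The element class had 4 rises and 7 falls among 74 loci, and the transcribed pseudogenes 17 rises and 5 falls among 92. With UV-C, 47 of 139 tested members rose (33.8%, against 33.6% of all tested loci) and 34 fell (24.5%, against 30.9%), and 64.4% of all loci were called in either direction. The element class had 17 rises and 14 falls among 63 loci, and the transcribed pseudogenes 30 rises and 20 falls among 76. Median log2 fold changes stayed close to 0 with zeocin, at -0.037 in the element class, -0.007 in the transcribed pseudogenes and -0.017 over all tested loci. With UV-C they were -0.013, 0.213 and 0.004. By at least 1 on the log2 scale, 13 members rose and 6 fell with zeocin (7.83% and 3.61%, against 5.16% and 2.09% of all loci), and 33 rose and 14 fell with UV-C (23.7% and 10.1%, against 18.2% and 10.1%). The share of members called higher at any size was thus near or below that of all loci, and the share rising by at least 1 was above it. By class, 5.41% of the element class rose with zeocin and 27% with UV-C. Of the transcribed pseudogenes, 18.5% and 39.5% rose. In all, 5 of 166 members (3.01%) rose by at least 4 on the log2 scale with zeocin, against 0.674% of all loci, and 16 of 139 (11.5%) with UV-C, against 4.68%. All 5 and 13 of the 16 were transcribed pseudogenes. In each of the 5, and in 14 of the 16, every mock library had under 10 counts, so these loci entered the test through the treated libraries alone and could only have risen. Of all loci that rose by at least 4, 48.9% with zeocin and 70.7% with UV-C were of this kind, so the share of large rises among members is read as no result about them. Of all 21 member rises with zeocin, 5 were of this kind (23.8%, against 2.95% of all rises). Of all 47 member rises with UV-C, 19 were of this kind (40.4%, against 13.2% of all rises). The shares of members that rose thus include loci that could only have risen. A locus with 10 counts or more in some mock libraries, but in fewer than a test asks for, is left out of these counts. They are therefore a minimum. No zeocin fall had every treated library under 10 counts, and 2 of the 34 UV-C falls did (5.88%, against 2.88% of all falls).

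**Figure D1:**
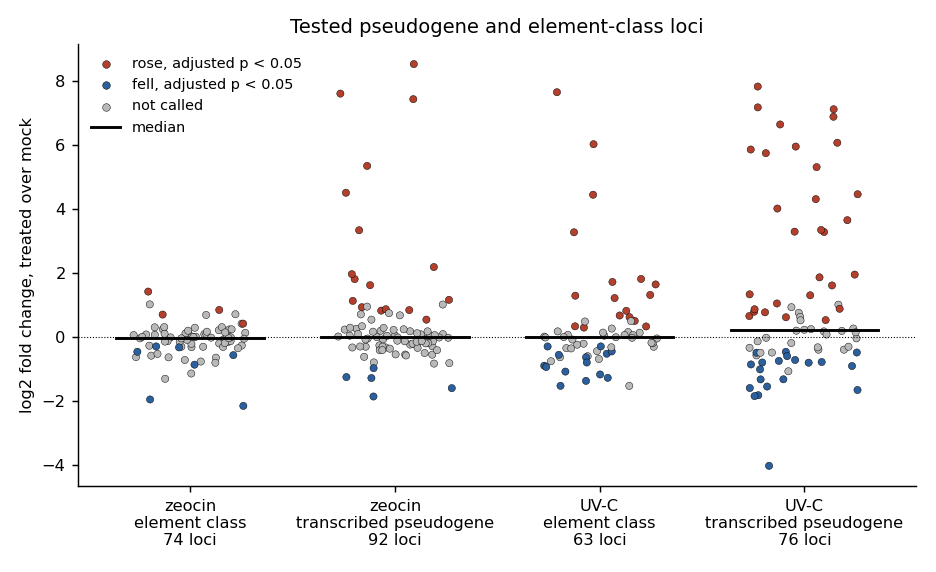
Each point is the log2 fold change of 1 tested member locus (treated over its mock) by experiment and class, with red for rises and blue for falls at adjusted p below 0.05, grey for loci not called and a bar for the median. The element class stays below 2 with zeocin, and the points above 4 are mostly transcribed pseudogenes.

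As a share of each library, element-class loci went from 0.0792% ± 0.00664 of counts in zeocin mock to 0.0697% ± 0.00368 with zeocin (SD, n = 5), and from 0.0355% ± 0.00156 to 0.0293% ± 0.000737 with UV-C (SD, n = 3). Transcribed pseudogene loci went from 0.0688% ± 0.012 to 0.0963% ± 0.0123 with zeocin and from 0.0361% ± 0.00295 to 0.0617% ± 0.00192 with UV-C. No UV-C library overlapped the mock range in either class, and the zeocin libraries overlapped it in the element class alone. These shares are a description without a test, and much of the change in the transcribed pseudogenes lay in 1 locus, AT1G79245. Without it they went from 0.0314% ± 0.00139 to 0.0334% ± 0.000679 with zeocin, where the groups overlap, and from 0.0227% ± 0.000887 to 0.0262% ± 0.0012 with UV-C, where they do not. All these shares are of total counts, of which plastid loci took 33.5% ± 2.24 in zeocin mock and 35.6% ± 1.1 with zeocin. Plastid loci took 45.3% ± 1.33 in UV-C mock and 38.6% ± 1.81 after UV-C. The part of this shift in the changed shares of members was not tested. The values of AT1G79245 were 271, 474, 449, 407 and 221 CPM in zeocin mock and 491, 845, 645, 590 and 657 CPM with zeocin. Every zeocin library lay above every mock library, by 0.83 ± 0.21 (SE) on the log2 scale (adjusted p = 0.0133). In the UV-C table AT1G79245, annotated as a pseudogene of unknown protein, had 115, 118 and 141 CPM in mock and 377, 378 and 388 CPM after exposure, a log2 change of 1.61 ± 0.09 (adjusted p = 1.21e-07).

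In the element class, 4 loci rose with zeocin and 7 fell. AT2G04490, annotated as an uncharacterized protein, gave the largest rise. It had 0.402, 0.537, 0.517, 0.236 and 0.554 CPM in mock and 0.896, 1.40, 1.91, 0.860 and 0.930 CPM with zeocin. The groups did not overlap, and the log2 change was 1.42 ± 0.34 (adjusted p = 0.0058). The locus covers 40.1% of the annotated gene, with 266 codons in its longest frame and no other copy in the genome by the criterion above. AT1G47565 rose by 0.85 ± 0.22 and AT3G43955, with the longest open frame of any zeocin member (1481 codons), by 0.70 ± 0.11 (adjusted p = 0.0102 and 0.000255). AT3G43955 ran from 15.9 to 24.5 CPM in mock and from 28.7 to 37.2 CPM with zeocin. The upstream neighbour of AT3G43955 on its strand, AT3G43960, ends 412 bases before it and rose by 1.41, and its closest protein-coding gene CRK8 (65.6% identity over 1327 bases) rose by 5.62. The part of either in the result was not tested. The smallest called rise, AT2G23330 at 0.42 ± 0.15, had the adjusted p nearest to the threshold on its inner side (0.0493), and its groups overlapped. Without mock replicate 1, 3, 4 or 5 or zeocin replicate 2, 4 or 5 its adjusted p was 0.0714 to 0.15, and it was 0.0505 to 0.0758 with upper quartile or RLE factors, without the filter on low counts or without organelle loci. On the outer side the nearest member was ML3, a mei2-like RNA-binding gene, at 0.28 with an adjusted p of 0.0521, which passed with DESeq2 (0.0481), with a replicate block (0.0135) and without mock replicate 1 (0.0046).

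The largest falls with zeocin were at EXT11 (AT5G49080), an extensin-like gene in the element class by its annotation, where 2 separate loci (chr5:19890789-19892047 and chr5:19892375-19892837, minus strand) cover 62.1% and 21.5% of the gene. Extensins are proline-rich proteins of the cell wall. The longer locus had 16.4, 11.3, 19.1, 20.3 and 20 CPM in mock and 2.60, 4.48, 3.13, 3.21 and 6.13 CPM with zeocin, and the log2 change was -2.15 ± 0.24 (adjusted p = 3.08e-05). The shorter one fell by 1.95 ± 0.31 (adjusted p = 0.000744). All zeocin libraries lay below all mock libraries at both. The closest protein-coding gene EXT6 (88.0% identity over 1238 bases) fell by 1.32 and AT4G08400, closest to the shorter locus, by 1.27 (adjusted p = 0.000109 and 0.0027). EXT11 has 10 further genomic copies, so that reads shared with them are missing. The 3 root markers fell too (PHT1;1, CASP1 and NRT2.1, by 1.2 to 2.81), with a summed level of 159 to 230 CPM in mock and 56.4 to 71.9 CPM with zeocin, and the part of root content in the fall of EXT11 was not tested. Other element-class falls were smaller, with AT1G47860 at -0.86 ± 0.15 and AT4G28900 at -0.57 ± 0.12 (adjusted p = 0.00052 and 0.00304). AT2G06950, which has the highest level of the class per kb of locus in zeocin mock (60.1 CPM per kb), fell by 0.32 ± 0.10 (adjusted p = 0.0234). It is no longer called without mock replicate 2 or 4 or zeocin replicate 4, at adjusted p of 0.0526 to 0.0671.

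Sadhu elements, non-coding retrotransposons of Arabidopsis, were not called higher in either experiment. With zeocin, 5 of the 6 Sadhu loci were tested, with log2 changes from -0.30 to 0.17, and 1 passed the test. That was SADHU1-1, with 23.2 to 27.1 CPM in mock and 17.5 to 22.8 CPM with zeocin (log2 change -0.29 ± 0.09, adjusted p = 0.0239). Its groups did not overlap, but the adjusted p rose to between 0.0526 and 0.068 when mock replicate 2 or 3 or zeocin replicate 2, 3 or 4 was left out. Under UV-C, 4 of the 7 Sadhu loci were tested and none passed, with changes from -0.63 to 0.01, and SADHU1-1 stayed between 31.9 and 36.2 CPM in all 6 libraries. MUSTANG genes and CYTOSLEEPER are former transposase genes that plants have kept as genes, and all 6 loci of this kind were tested in each experiment. The sets differ, with MUG6 in the zeocin set alone and MUG5 in the UV-C set alone. None was called with zeocin (-0.26 to 0.29). Of the 6 in the UV-C set, 4 rose and 1 fell, where 64.4% of all loci were called. CYTOSLEEPER had 0.416, 0.575 and 0.921 CPM in mock and 1.48, 1.67 and 1.61 CPM after UV-C (1.32 ± 0.30, adjusted p = 0.0029). MUG2 went from 1.25, 1.18 and 1.31 CPM to 2.27, 2.92 and 3.53 CPM (1.22 ± 0.21, adjusted p = 0.000496). MUG5 rose by 0.62 ± 0.11 and MUG1 by 0.29 ± 0.09, while MUG8 fell by 0.29 ± 0.08 and MUG4 was at -0.00028 ± 0.10. In all 5 called loci the UV-C and mock libraries did not overlap, as was also so for 93 of all 139 tested UV-C members, called or not. These kinds were drawn up after values had been seen, and their counts are a description.

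The largest zeocin rises named were at transcribed pseudogenes. Those of at least 4 on the log2 scale could only have risen, as said above, and are no result about the class. AT2G25380, a pseudogene of a RING/U-box protein with 79.4% identity to its neighbour AT2G25370 over 1020 bases, was not counted once in the 5 mock libraries. It had 0.636, 1.42, 1.64, 1.39 and 0.955 CPM with zeocin, or 230 counts in all. This is at least 78.5-fold higher, taking 3 counts over the mock group as the limit (adjusted p = 1.51e-05). Its neighbour gave no test value. With UV-C the same pseudogene had 0 counts in mock and 19 after exposure, too few for a test. AT1G11482 (chr1:3867298-3868669, minus strand) had 1 count in mock (0.0287 CPM in replicate 1) and 1.44, 1.28, 1.49, 1.29 and 1.81 CPM with zeocin, a pooled ratio of 284 with a 95% counting interval of 50.5 to 11244 (adjusted p = 1.2e-07). AT1G04457, a pseudogene of the plastid ribosomal protein gene PRPL28, was at 0 in all mock libraries and at 0.441 to 0.827 CPM with zeocin, at least 40.6-fold higher (adjusted p = 5.36e-05). It is named for its size of change after its values were seen, and the annotated gene makes up 25.5% of the locus. Intervals and limits of this kind cover counting error only.

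AT2G16895 lies 632 bases from AT2G16890, a UDP-glycosyltransferase gene, with 82.1% identity to it over 924 bases, and 2 consecutive loci hold parts of it. The first had 0.258, 0, 0.0739, 0.141 and 0.0231 CPM in mock and 2.86, 1.73, 1.44, 2.38 and 3.22 CPM with zeocin (log2 change 4.51 ± 0.51, adjusted p = 1.27e-05). The second, 265 bases further on, rose from 3 counts in mock to 143, a ratio of 48.8 with a counting interval of 16.4 to 240 (adjusted p = 1.63e-05). AT2G16890 itself changed by -0.11 with an adjusted p of 0.539. AT5G06278 (chr5:1917009-1918990, plus strand), a pseudogene of an abscisic acid-responsive HVA22 protein, had 1.84, 1.23, 0.714, 1.3 and 1.48 CPM in mock and 11, 15.9, 11.3, 13.7 and 14.4 CPM with zeocin. All zeocin values were far above all mock values, at 3.34 ± 0.20 (adjusted p = 1.18e-08). At its locus 55.4% of the exonic length belongs to the gene.

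Pseudogenes of cell-surface receptors were a further group, drawn up after values had been seen. By the words of their annotation or of the closest gene's product, 8 loci of 7 genes were tested with zeocin, and 6 loci of 5 genes rose and none fell, where 15.0% of all loci rose and 12.0% fell. The 6 include 2 loci of AT3G25495, whose closest gene is no receptor gene. Of the other kinds sorted by such words, 1 of 6 tested F-box loci, 0 of 2 cytochrome P450 loci and 1 of 3 ribosomal protein loci rose with zeocin. RLP49 (AT4G13900, chr4:8035590-8038374, plus strand), a receptor-like protein gene with 92.3% identity to RLP47 over 2160 bases and a frame of 844 codons, had 2.33, 4.01, 3.35, 2 and 4.22 CPM in mock. With zeocin it had 10.7, 11.3, 14.9, 9.39 and 9.50 CPM, with no overlap (1.81 ± 0.21, adjusted p = 1.8e-05), while RLP47 changed by -0.08 (adjusted p = 0.865). AT4G23215 (chr4:12152489-12153510, minus strand), a pseudogene of a cysteine-rich receptor-like kinase beside CRK14, had 0.344, 1.58, 2.34, 1.53 and 0.854 CPM in mock and 2.08, 6.80, 8.35, 2.91 and 5.86 CPM with zeocin. The groups overlapped, and the log2 change was 1.97 ± 0.50 (adjusted p = 0.014). WAKL3, of the wall-associated kinase family, rose by 0.93 ± 0.28, and AT2G24160, close to RLP31, by 0.87 ± 0.17 (adjusted p = 0.0213 and 0.00148).

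The remaining receptor-like member, AT3G25495, is annotated as a pseudogene of a leucine-rich repeat protein, but its closest protein-coding gene is GMI1, which was named for its induction by gamma rays and mitomycin C. Over 585 aligned bases the longer locus of AT3G25495 and GMI1 are 96.1% identical. The first 60 aligned bases are shown because such differences decide which of the 2 genes a read is counted for. Capitals mark the 5 bases that differ.
AT3G25495: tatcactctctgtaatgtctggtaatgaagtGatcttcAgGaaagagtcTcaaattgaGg
GMI1: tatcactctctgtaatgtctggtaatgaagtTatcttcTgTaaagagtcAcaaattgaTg
The longer locus had 15.2, 14.0, 10.4, 12.3 and 11.6 CPM in mock and 16.4, 21.8, 17.8, 18 and 18.3 CPM with zeocin, without overlap (0.54 ± 0.11, adjusted p = 0.0026). A short locus at its start rose by 1.16 ± 0.23 (adjusted p = 0.00163). GMI1 rose by 5.40 ± 0.22 in the same libraries (adjusted p = 1.47e-09). Whether some reads of GMI1 were counted at AT3G25495 was not tested.

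Falls among transcribed pseudogenes with zeocin were led by AT2G13910, with 87.7% identity over 2133 bases to the C1-domain gene AT1G53340. It had 2.33, 2.37, 3.35, 3.21 and 3.51 CPM in mock and 1.10, 0.981, 1.66, 0.794 and 0.327 CPM with zeocin (-1.60 ± 0.31, adjusted p = 0.00154), and AT1G53340 changed by -0.04 (adjusted p = 0.908). AOP2, a glucosinolate gene that is truncated in Col-0, fell by 1.28 ± 0.24 (adjusted p = 0.00116). Its mock range of 2.07 to 5.07 CPM met the zeocin range of 1.22 to 2.25 CPM at 1 mock library. AT3G30875, whose locus of 9 exons holds a frame of 1241 codons and has 68.5% identity over 448 bases to the transporter gene ABCB18, went from 6.60 to 9.05 CPM in mock to 3.01 to 3.67 CPM with zeocin (-1.25 ± 0.12, adjusted p = 3.46e-06). AT3G18145, related to the carbamoyl phosphate synthetase gene CARA, fell by 0.97 ± 0.26 (adjusted p = 0.0132), and CARA changed by -0.07. By level, the 2 loci of AT1G05135 stood with AT1G79245 at the top of the class, at 86.1 and 44.8 CPM per kb in mock, and changed by 0.09 and -0.22 without passing the test.

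**Figure D2:**
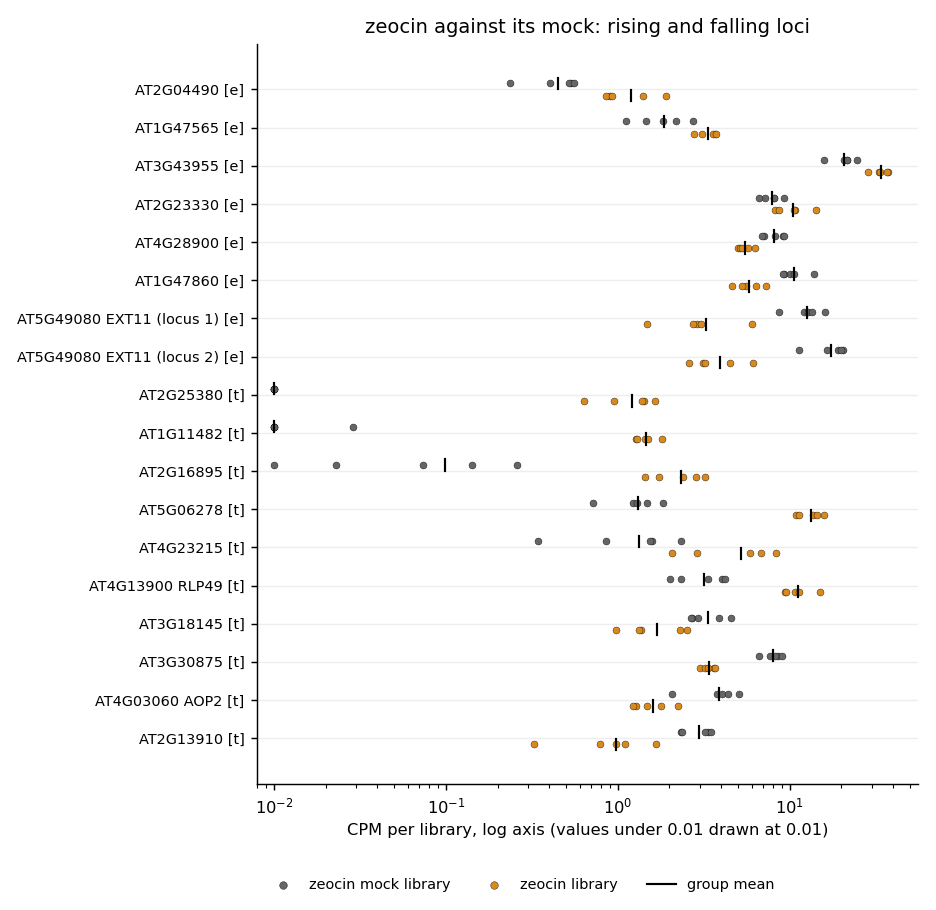
CPM in each of the 5 mock (grey) and 5 zeocin (orange) libraries for the named rising and falling loci, on a log axis with values under 0.01 drawn at 0.01, black bars for group means, [e] for the element class and [t] for transcribed pseudogenes. AT2G25380 sits at 0 in all mock libraries and above 0.6 CPM in all zeocin libraries, while both EXT11 loci fall from above 8 CPM to below 7 CPM.

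The largest UV-C rises named were in the same class. Of the 16 member rises of at least 4 on the log2 scale, at least 14 could only have risen, so this is no result about the class. AT2G24165, related to RLP31 (76.9% identity over 546 bases), had 2 counts in mock (0.026, 0.0288 and 0 CPM) and 5.53, 5.39 and 4.26 CPM after exposure, a ratio of 277 with a counting interval of 76.1 to 2292 (adjusted p = 4.35e-08). RLP31 itself rose by 1.12. AT4G23215, the CRK pseudogene, had 0.520, 0.345 and 0.474 CPM in mock and 57.7, 72.9 and 58.4 CPM after UV-C, with no overlap (7.12 ± 0.16, adjusted p = 4.86e-10). CRK14, whose locus ends 432 bases upstream of it on the same strand, rose by 3.05, and 49.9% of the AT4G23215 locus is the annotated gene. RLP49 rose from 0.416, 0.259 and 0.251 CPM to 3.14, 3.27 and 3.19 CPM (3.35 ± 0.24, adjusted p = 9.85e-07). Of 9 receptor-like loci tested with UV-C, 5 rose and none fell, where 33.6% of all loci rose and 30.9% fell, and the 3 loci of AT3G25495 did not pass the test. The 5 include AT2G24165, which could only have risen. AT4G23215 and RLP49 were at 0.520 CPM or less in mock, which leaves little room for a called fall. This group too was drawn up after values had been seen, and its counts are a description.

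AT2G31860 resembles TEJ, which encodes a poly(ADP-ribose) glycohydrolase (an enzyme that removes poly(ADP-ribose) from proteins). It had 0.026, 0.0288 and 0.0279 CPM in mock and 1.93, 4.17 and 5.03 CPM after UV-C, a ratio of 135 with a counting interval of 45.8 to 659 (adjusted p = 4.87e-06). The gene upstream of it, AT2G31865, ends 1250 bases before it and rose by 3.86. AT1G65385, 86.2% identical to serpin 3 over 797 bases, rose from 3 counts to 255, a ratio of 114 with an interval of 38.6 to 557 (adjusted p = 3.11e-07). Serpins are protease inhibitors. An unannotated locus 672 bases upstream of it rose by 7.18. AT1G35200, a fragment related to ribosomal protein L4, had 0, 0 and 0.0279 CPM in mock and 2.38, 1.88 and 1.42 CPM after exposure (ratio 207, interval 36.6 to 8219, adjusted p = 2.25e-06). AT3G48650 rose from 0.234, 0.288 and 0.558 CPM to 21.5, 26.5 and 25 CPM (6.07 ± 0.21, adjusted p = 6.51e-09). In each of these 4 loci every UV-C library was above 1 CPM and every mock library below it.

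In the element class, AT2G04490 rose most among loci above 1 CPM, from 0.234, 0.0863 and 0.139 CPM to 3.07, 3.44 and 3.92 CPM (4.45 ± 0.30, adjusted p = 5.89e-07). Below that level, AT3G29156 was at 0 in all 3 mock libraries and at 0.984, 0.695 and 0.691 CPM after UV-C, at least 28.6-fold higher (adjusted p = 4.4e-05). AT3G15310 had 1 count in mock and 0.833, 0.730 and 0.999 CPM after UV-C, a ratio of 92.6 with an interval of 16.1 to 3712 (adjusted p = 1.41e-05). Both were named after their values were seen. AT4G20730, which has 9 further copies and 94.2% identity over 999 bases to ASY2, a gene of the meiotic HORMA family, rose from 0.279 to 0.494 CPM in mock to 0.946 to 1.46 CPM (1.72 ± 0.32, adjusted p = 0.000847), and ASY2 changed by 0.14 (adjusted p = 0.609). AT3G44205 and AT5G20880 rose by 0.82 ± 0.27 and 0.67 ± 0.19 (adjusted p = 0.022 and 0.00999), and AT3G44205 lost its call without mock replicate 2 or UV-C replicate 2 or 3 (adjusted p = 0.0617 to 0.095).

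Falls with UV-C were smaller, with 1 exception. Beside them, the 3 shoot markers fell by 0.51 to 0.77 (summed level 17300 to 18700 CPM in mock and 11600 to 12200 CPM after UV-C) and 2 of the 3 root markers by 0.97 and 1.2 (23 to 45.5 CPM and 10.2 to 22.4 CPM for all 3), and their part in the falls was not tested. AT1G05135 (chr1:1477478-1478923, minus strand), annotated as a pseudogene of unknown protein, had 4.86, 6.16 and 9.65 CPM in mock and 0.833, 0.278 and 0.154 CPM after exposure (-4.03 ± 0.50, adjusted p = 0.000272), so all UV-C libraries lay below all mock libraries. AT4G04692 had 34.4, 30.6 and 29.1 CPM in mock and 10.8, 9.70 and 10.7 CPM after UV-C (-1.59 ± 0.09, adjusted p = 1.68e-07). AT2G26220 fell by 1.65 ± 0.23 and AT1G03580 by 1.55 ± 0.27 (adjusted p = 0.000103 and 0.000626). In the element class AT1G35612, annotated as a Ulp1 protease pseudogene, had 13.2, 13.8 and 10.2 CPM in mock and 4.13, 4.76 and 5.49 CPM after UV-C (-1.37 ± 0.15, adjusted p = 1.81e-05). AT5G23955, AT1G47520 and AT1G20390 fell by 1.28, 1.17 and 1.08, and the last holds a frame of 1079 codons. RNR2B (AT5G40942), a pseudogene of the ribonucleotide reductase small chain, fell by 0.75 ± 0.26 (adjusted p = 0.0271), while TSO2, its closest working gene at 82.2% identity over 1005 bases, rose by 0.44. With zeocin TSO2 rose by 6.22, and RNR2B changed by -0.41 (adjusted p = 0.363). By level per kb of locus, AT2G07786 (61.5 CPM per kb) stood highest in UV-C mock and was not called, and AT4G04692 (38.3 CPM per kb) and AT2G20724 (31.7 CPM per kb) both fell, the latter by 1.32 ± 0.25. In the element class SADHU1-1 was at 33.1 CPM per kb and AT3G42806, which fell by 0.80 ± 0.11, at 30.4 CPM per kb. The member nearest inside the threshold, AT3G43690, fell by 0.45 with an adjusted p of 0.0411, and AT1G34044 lay just outside at -1.07 with 0.0523.

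**Figure D3:**
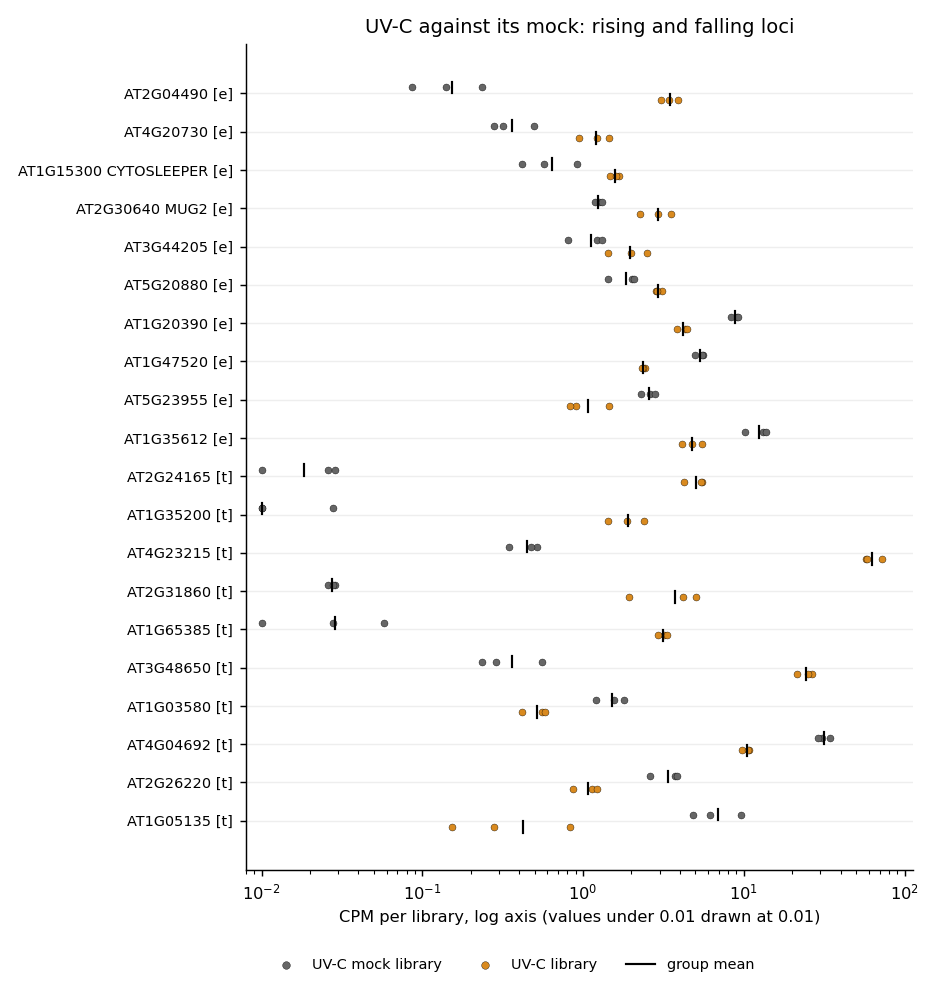
CPM in each of the 3 mock (grey) and 3 UV-C (orange) libraries for the named rising and falling loci, on a log axis with values under 0.01 drawn at 0.01, black bars for group means, [e] for the element class and [t] for transcribed pseudogenes. AT4G23215 moves from below 1 CPM to above 50 CPM, and AT1G05135 from above 4 CPM to below 1 CPM.

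Of the 108 genes with a tested locus in both tables, 20 were called with zeocin and 58 with UV-C. The 13 called in both are 65% of the zeocin calls and 22.4% of the UV-C calls, beside 53.7% (UV-C) and 18.5% (zeocin) of the 108 genes called at all. Each experiment had its own mock, and the difference between them was not tested. The genes that rose in both are 9, which is 75% of those that rose with zeocin and 31% of those that rose with UV-C, beside 26.9% of the 108 that rose with UV-C and 11.1% that rose with zeocin. Among the 9, AT2G16895 with zeocin, and AT2G31860 and AT2G04490 with UV-C, had every mock library under 10 counts. They could only have risen there, so the shares include rises of fixed direction and are read as no result about shared induction. AT2G31860 rose by 2.19 with zeocin and 6.88 with UV-C, AT4G23215 by 1.97 and 7.12, and AT3G48650 by 1.13 and 6.07. AT2G04490 rose by 1.42 and 4.45, RLP49 by 1.81 and 3.35, and AT2G16895 by 4.51 and 3.29. AT1G79245 rose by 0.83 and 1.61, AT2G24160 by 0.87 and 0.79, and AT2G23330 by 0.42 and 0.50, the zeocin call of the last being lost under the settings given above. In zeocin mock AT3G48650 ranged from 0.402 to 2.44 CPM, and its zeocin libraries from 2.74 to 3.19 CPM. Its zeocin call was lost on leaving out mock replicate 4 or 5 or any zeocin replicate (adjusted p = 0.0526 to 0.072). Called lower in both were AT1G47860 (-0.86 and -0.90), AT4G28900 (-0.57 and -0.94) and AT3G18145 (-0.97 and -0.72). AT2G06950 alone was called in opposite directions, at -0.32 with zeocin and 0.33 with UV-C. In the UV-C table it had 23.5, 25.3 and 24.5 CPM in mock and 30.9, 31.1 and 30.2 CPM after exposure.

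**Figure D4:**
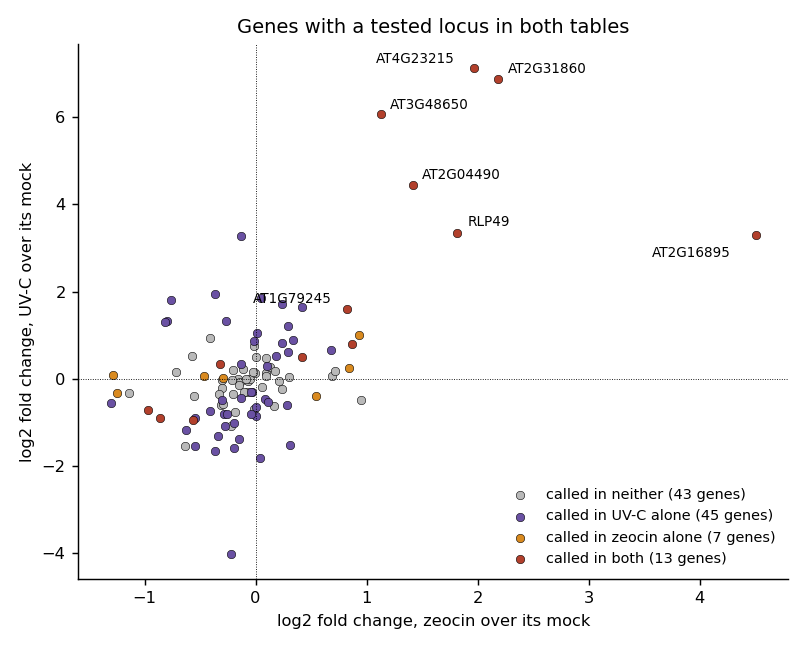
Log2 fold change with zeocin (x axis) against that with UV-C (y axis), each against its own mock, for the 108 genes with a tested locus in both tables, coloured by where they were called. The 6 labelled genes other than AT1G79245 lie above 1 on both axes, and AT2G06950 is the red point left of 0 and above 0.

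Values of neighbours and relatives stand beside these results as follows. The closest protein-coding gene, aligned over 200 bases or more, was tested for 64 tested members with zeocin and for 48 with UV-C. Over these pairs the log2 changes of member and relative had Pearson's r of 0.111 and Spearman's rho of 0.274 with zeocin, and 0.296 and 0.204 with UV-C, as a description over loci of the same libraries, which are not independent. Of the members that rose, the relative rose in 3 of 8 pairs with zeocin and in 7 of 17 with UV-C, where it fell in 4. Over all tested pairs the relative rose in 15.6% and fell in 9.38% with zeocin, and rose in 31.2% and fell in 22.9% with UV-C. AT4G03376, 88.5% identical to AT1G56420, rose by 5.75 with UV-C while AT1G56420 changed by -0.27 (adjusted p = 0.264), and AT5G55420, a lipid transfer protein pseudogene, went from 2 counts to 112 while AT5G55450 fell by 1.04. Of those that fell, the relative fell in 4 of 6 with zeocin, and in 4 of 13 with UV-C, where it rose in 6. A same-strand locus that also rose lay within 1000 bases upstream for 3 of the 21 zeocin rises (14.3%, against 4.39% of all loci that rose) and for 3 of the 47 UV-C rises (6.38%, against 9.78%). In the UV-C libraries, loci that hold several genes took 8.83% ± 1.03 of counts against 3.68% ± 0.061 in mock, and unannotated loci 1.37% ± 0.169 against 0.568% ± 0.0476 (SD, n = 3). The part of transcripts running on from a neighbour in the rises of members was not tested.

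**Figure D5:**
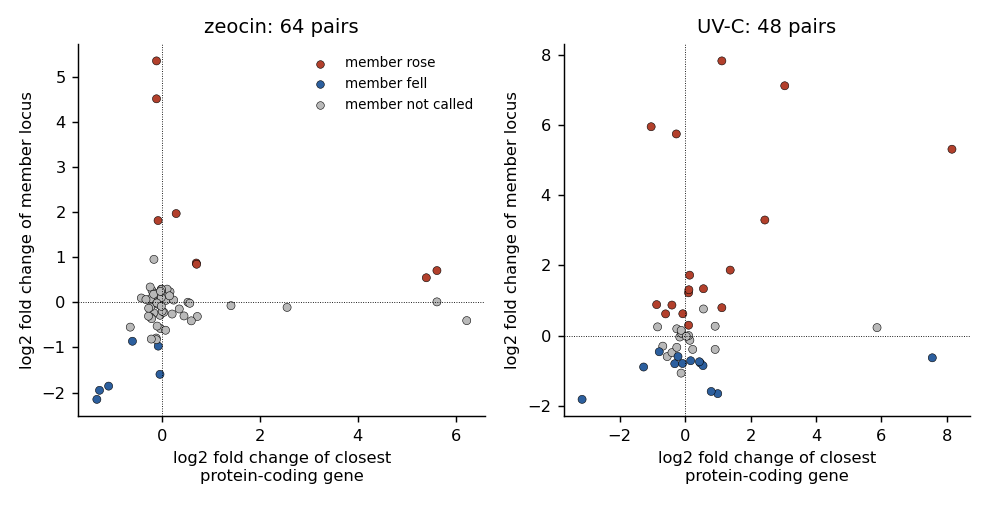
Log2 fold change of the closest protein-coding gene (x axis) against that of the member locus (y axis) for 64 pairs with zeocin (left) and 48 with UV-C (right), red where the member rose and blue where it fell. With zeocin the 2 highest members, both loci of AT2G16895, sit near 0 on the x axis, and the pairs with GMI1, CRK8 and TSO2, beyond 5 on the x axis, hold members at 0.54, 0.70, 0.01 and -0.41 (CRK8 is closest to 2 members).

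Genes of the silencing pathways, among them the demethylases ROS1 and IBM1 that counteract silencing, were followed in the same fits. Of 34 tested, 4 rose and 7 fell with zeocin (median -0.117), beside 15.0% and 12.0% of all loci. MORC6 rose by 1.46 ± 0.08, AGO6 by 1.43 ± 0.21, RDR2 by 0.86 ± 0.12 and DCL4 by 0.33 ± 0.10, which act in gene silencing and small RNA pathways. The falls included the DNA methyltransferases MET1 (-0.47), CMT3 (-0.54) and CMT2 (-0.45) and ATXR6, a histone H3 methyltransferase of heterochromatin, at -1.69 ± 0.28. With UV-C, 3 rose and 14 fell (median -0.275), beside 33.6% and 30.9% of all loci. SGS3 fell by 1.01 ± 0.16, RDR6 by 0.75 ± 0.10 and AGO4 by 0.67 ± 0.11, while ATXR5 rose by 0.88 ± 0.17 and NRPD1, the large subunit of RNA polymerase IV, by 0.85 ± 0.18. Among UPF1, UPF2 and UPF3, genes of nonsense-mediated decay, UPF2 rose by 0.25 with zeocin and UPF3 by 0.23 with UV-C, and none fell. The damage-response genes BRCA1, CYCB1;1 and SMR7 rose by 5.22 to 9.07 with zeocin. With UV-C, BRCA1 rose by 1.31 and SMR7 by 6.12, and CYCB1;1 changed by 0.29 (adjusted p = 0.177). Shoot and root markers were present in every library, the flower markers did not exceed 0.485 CPM summed, and no locus held a pollen marker. Of 2 seed markers, CRA1 had a locus in the zeocin table alone, with 0 to 4.42 CPM in mock and 0 to 13.1 CPM with zeocin (adjusted p = 0.324), and its part in the results was not tested.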

How the data were processed

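RNA of 16 Arabidopsis libraries (zeocin and its mock, 5 each, UV-C and its mock, 3 each) was compared as raw counts per assembled locus, deposited by the authors in 1 table per experiment. Libraries are strand-specific (NEBNext Ultra Directional, after TRI reagent and removal of ribosomal RNA), per the labels' protocols. The tools named in the submitters' processing notes are Trim Galore 0.11.8, STAR 2.7.1a, StringTie 2.1.5 and featureCounts 2.0.1, and per the file headers reads mapping to several places were not counted. Each experiment has its own assembly, so loci were tested within a table only. The labels do not tell whether replicates are separate cultures, and p-values cover the spread among these libraries, which may be technical.

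Loci were compared with the RefSeq annotation of TAIR10 (97.6% of zeocin and 99.2% of UV-C introns matched). A gene under 200 bases did not count as a second gene of a locus. Each table was fitted whole with edgeR 4.0.16 in R 4.3.3 (TMM factors, filterByExpr, robust quasi-likelihood, two-sided) and p-values were adjusted over all tested loci (19447 and 19587). On simulated counts 96.7% of 92 zeocin and 90.2% of 94 UV-C loci changed by 1 on the log2 scale were called, and 100% of those changed by 2. Among unchanged loci 10 and 7 were called. The simulation gave all loci the same dispersion and drew changed loci from all tested loci. Its rates therefore do not hold for members at low levels. Relatives and copies came from blastn 2.17.0 (E-value at most 1e-10). CPM were computed here. Levels between loci were compared per kb only.

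Members and lists were chosen with earlier results of these data known. Named are, per class and experiment, the 6 largest rises and 4 largest falls with at least 1 CPM in the higher group, the 3 highest mock levels per kb, up to 8 genes called in both tables and the members nearest the threshold. Further members are named by kind or, where said, after their values were seen. Alternatives were other scaling factors (upper quartile, RLE), DESeq2 1.42.0, no filter, no organelle loci, a replicate block, stricter overlap, short genes kept and each library left out. The reference has no type for transposable element genes, so the classes follow its types pseudogene (element class) and transcribed pseudogene. One gene of the RNA decay list is not reported here.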

Additional observations from a re-analysis of the deposited data

Results flagged for a closer look

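In the 51 groups of 5 zeocin or mock libraries checked for named loci, 1 value stood apart from the others, where chance flags about 1 in 20 groups. AT1G11482 had 0.0287 CPM in mock replicate 1, a single count, and 0 in the other mock libraries.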

How the results depend on the processing

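Called members kept their number within 1.5 times under all alternatives but one. Where the overlap had to reach 80% of both gene and locus, fewer loci were members and 15 were called with zeocin (9 higher, 6 lower) and 39 with UV-C (21 higher, 18 lower). Leaving out each library gave 27 to 36 zeocin calls (17 to 22 rises, 9 to 15 falls) and 77 to 84 UV-C calls (44 to 51 rises, 30 to 34 falls). The labels do not say what a shared replicate number means. Same-number correlations ran from -0.096 to 0.435 for zeocin and from -0.3 to 0.155 for UV-C. The best match had the same number for zeocin mock replicates 1 and 3 and UV-C mock replicate 3, so pairing is neither shown nor excluded. With the replicate number as a block 36 and 80 members were called. Over all loci the block gave 3121 rises and 2554 falls with zeocin, against 2917 and 2328 without it. With UV-C it gave 6336 and 5792, against 6572 and 6051. DESeq2 called 41 and 85. Upper quartile factors turned the share of rises among all called loci from 55.6% to 44.9% with zeocin and from 52.1% to 44.8% with UV-C, with a median shift from 0.004 to -0.103 in the latter. Under them 19 members rose and 13 fell with zeocin, and 44 rose and 44 fell with UV-C. Of the single named loci under each alternative, 384 zeocin and 355 UV-C values kept their direction and side of the threshold, 26 and 9 lost the call, 3 and 4 gained one, and 3 and 4 changed sign, all of them at 2 loci that were not called. These are the second locus of AT1G05135 with zeocin (0.091), at -0.047, -0.005 and -0.092 without mock replicate 1 or 3 or zeocin replicate 3 (-0.092 to 0.377 over all libraries left out in turn), and SADHU1-1 with UV-C (0.013), at -0.095 with upper quartile factors and at -0.028, -0.03 and -0.009 without mock replicate 2 or 3 or UV-C replicate 3 (-0.03 to 0.071 in turn). AT3G43690 lost its UV-C call with DESeq2 (adjusted p = 0.0864), with the block (0.0816) and without mock replicate 2 or 3 or UV-C replicate 2 or 3 (0.0957 to 0.123). Levels under about 1 CPM rest on few counts, and copies with near-identical sequence are undercounted.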
